A study of Mus musculus with 18 samples.

Results

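The genes described here encode the proteins of the cytosolic ribosome. They were taken by symbol: protein-coding genes whose mouse symbol starts with Rpl or Rps and a digit, plus Rpsa, Rplp0, Rplp1 and Rplp2, with pseudogenes and the Rps6k kinases left out. The rule found 86 genes among the 54347 in the table. Of these, 46 encode core proteins of the large (60S) subunit and 31 encode core proteins of the small (40S) subunit. The other 9 are 7 paralogs or paralog-like genes, Rpl3l, Rpl7l1, Rpl10l, Rpl22l1, Rpl36al, Rpl39l and Rps27l, the retrocopy Rps27rt, and Rps19bp1, which encodes a protein that binds RPS19 and is not itself a ribosomal protein. Fau and Rack1 encode ribosomal proteins too but fall outside the symbol rule.

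RNA was profiled in leukemia stem cells that were sorted from marrow. The animals were C57BL/6JRj, and leukemia had been induced 30 days earlier. The 5 mutant mice (6, 7, 8, 10 and 12) carried the genotype Prx1-Cxcl12-mutant. The 4 control mice (1 to 4) are the Prx1-Cxcl12 controls, which the sample titles call WT. Both groups carried the leukemia, and each mouse gave 7000 cells and 2 technical libraries of transcript 3′ ends. Prx1 is a promoter of mesenchymal cells of the marrow stroma, so the sorted cells are not the cells in which Cxcl12 was targeted, and their Cxcl12 RNA does not check the deletion. The sources used here name no leukemia driver, sort markers, sex or ages.

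A ribosome holds a single copy of most of these proteins, and cells make them in matched amounts. Their mRNAs start with a C followed by a tract of pyrimidines, the 5′ terminal oligopyrimidine tract, through which mTOR and the RNA-binding protein LARP1 set how strongly the mRNAs are translated. That control acts on translation and is not measured by RNA counts. Blood-forming cells are known to be sensitive to the dose of single ribosomal proteins: loss of a single gene copy of RPL5, RPL11, RPS19 and others causes Diamond-Blackfan anemia in humans.

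Start-site sequence is shown because the pyrimidine tract is a known feature of such genes that the naming rule did not use. RefSeq windows on GRCm38.p6, running from 250 bases before to 50 bases after the annotated gene start, were found for 57 of the 77 core genes (67 windows). The 30-base stretches below are centred on the longest pyrimidine run that lies within 25 bases of the annotated start, and the run is in capitals. Such a run need not be the tract that opens the mRNA. Relative to the annotated start, the run of Rpl5 begins at -20 (9 bases) and that of Rpl4 at -18 (14 bases). Both end before that start. Rpl5, Rpl14, Rps27, Rps6, Rpl38 and Rpl4 are described below, and Rpsa is shown as a gene with a shorter run.
Rpl5 (chr5:107900498-107900527, plus strand): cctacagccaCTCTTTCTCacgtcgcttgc
Rpl14 (chr9:120571501-120571530, plus strand): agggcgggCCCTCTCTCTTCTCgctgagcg
Rps27 (chr3:90213631-90213660, minus strand): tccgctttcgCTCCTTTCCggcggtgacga
Rps6 (chr4:86857349-86857378, minus strand): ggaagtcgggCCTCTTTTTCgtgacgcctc
Rpl38 (chr11:114668568-114668597, plus strand): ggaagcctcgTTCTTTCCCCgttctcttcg
Rpl4 (chr9:64173361-64173390, plus strand): gtgacaagTCTTTCCTTTTCCTgtgggagc
Rpsa (chr9:120127775-120127804, plus strand): ccggccgcccgTCCTTTCgcgctacccggg
A run of at least 8 pyrimidines on the gene's own strand lay within 25 bases of the start in 39 of 67 core windows (58.2%), against 23.9% of all 21262 windows of protein-coding genes. The ETS-type motif CCGGAAG, searched on both strands of the whole window, was in 37.3% of core windows and 11.6% of all windows. The motif AAGATGGC, known from YY1 sites, was in 10.4% of core windows and 3.05% of all. The GC box GGGCGG was in 61.2% of core windows and 46.2% of all, and the TATAAA box was in 8.96% of core windows and 12.6% of all. A match describes the letters of a window only.

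Ribosomal protein mRNAs took between 27.7% and 32.4% of the counts of a mouse. Total counts ran from 11766553 to 25485975 per mouse and from 3825500 to 15071673 per library. The 86 genes held 29.7%, 30.1%, 30.4%, 29.1% and 28.0% of the counts in mutant mice 6, 7, 8, 10 and 12. They held 27.7%, 28.9%, 32.4% and 27.7% in control mice 1 to 4. The mutant values all lay inside the control range, with control mouse 3 highest of all. The means were 29.5% ± 0.92 in mutant mice and 29.2% ± 2.24 in control mice (SD, n = 5 and 4), a difference of 0.25 percentage points that is smaller than either SD.

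The sign of that difference was opposite in the first and second libraries. In the first libraries the mutant mean was 2.13 percentage points above the control mean, and in the second libraries it was 1.41 points below. The shares of the libraries of 1 mouse differed by 0.951 to 4.45 points, with the widest gaps in control mouse 2 (26.2% and 30.7%) and mutant mouse 12 (30.3% and 26.4%). The difference between groups was thus smaller than the median technical gap of 1.73 points. The sources used here do not say whether a library number marks a shared preparation or run.

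**Figure D1:**
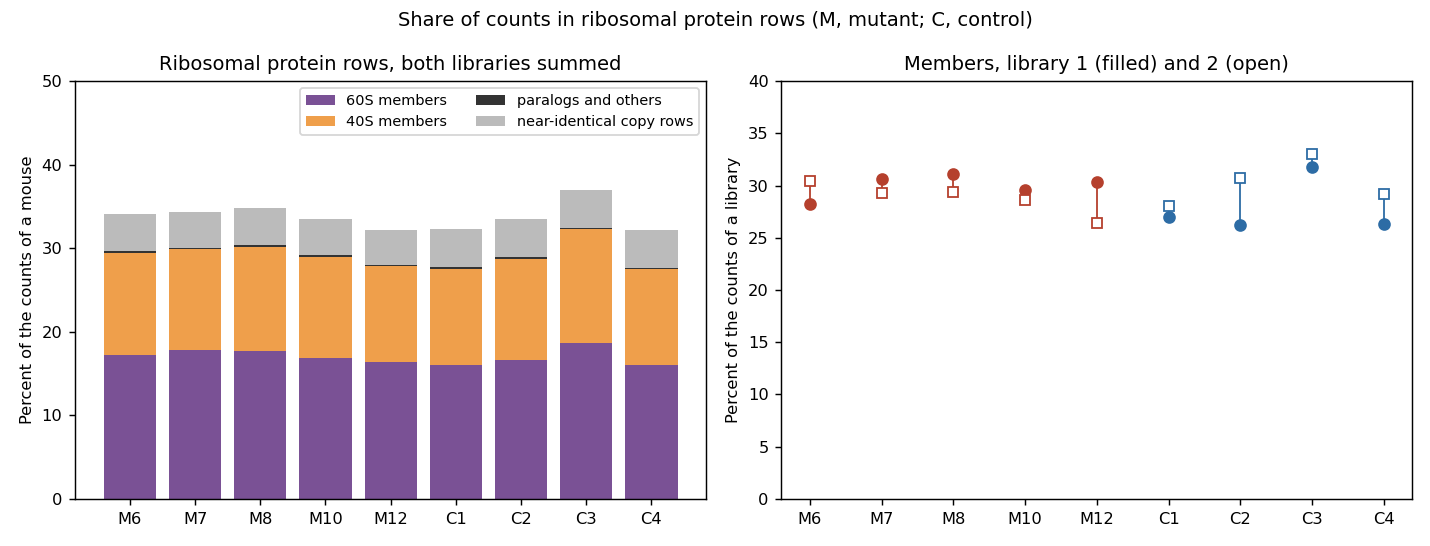
Left, the percent of each mouse's counts in 60S genes, 40S genes, the paralogs and other members, and rows of near-identical copies, stacked; right, the percent of each library's counts in all 86 members, library 1 filled and library 2 open, mutant mice (M) left of control mice (C). Members take 28.0% to 30.4% in mutant mice and 27.7% to 32.4% in control mice, and libraries of 1 mouse lie up to 4.45 points apart.

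Split by subunit, 60S genes held 17.2% ± 0.588 of counts in mutant mice and 16.8% ± 1.27 in control mice, and 40S genes held 12.1% ± 0.405 in mutant mice and 12.2% ± 0.986 in control mice (SD, n = 5 and 4). Their ratio was 1.40, 1.49, 1.41, 1.40 and 1.43 in mutant mice 6, 7, 8, 10 and 12, against 1.39, 1.36, 1.37 and 1.39 in control mice 1 to 4. The groups of this ratio did not overlap, although the mutant minimum and the control maximum differ by little: 1.40054 in mutant mouse 6 and 1.38853 in control mouse 4. The ratio was chosen after earlier results on these libraries were known, so no test is given.

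Gene by gene, no ribosomal protein gene passed the test. The pair of libraries from each mouse was added up, and mutant was set over control with edgeR's quasi-likelihood test, adjusted by Benjamini-Hochberg over all 12973 genes tested, with a call at an adjusted p under 0.05. Of the 86 members 84 passed the filter on low counts, and 0 were called. Of all genes tested 9 were called (0.0694%), 0.0231% as higher and 0.0462% as lower in mutant mice. At an unadjusted p under 0.05 stood 2 members, Rpl5 and Rpl14, both higher in mutant mice. Of all genes 9.85% stood there, 4.96% as higher and 4.89% as lower. For 1 member, Rpl5, all mutant mice lay above all control mice, and for 0 members all lay below. Over all genes the groups lay apart in 4%, 1.87% with the mutant mice higher and 2.13% with them lower. DESeq2 called 1 member, Rpl5, and 88 of the 24960 genes with any count (0.353%). That total is not limited to genes given an adjusted p, so its share is not on the same scale as 9 of 12973. By median, the log2 fold change of the 84 members was 0.04, with 52 above 0 and 32 below, and that of all genes tested was 0.01. Among 60S genes 31 of 46 lay above 0 (median 0.07), and among 40S genes 16 of 31 (median 0.00).

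The number of members above 0 changed with the libraries and mice used. It was 67 of 83 in the first libraries (median 0.18) and 14 of 84 in the second (median -0.08), while the median over all genes was 0.01 in the first libraries and nearer to 0 in the second. Without control mouse 3, 65 of 84 members lay above 0 (median 0.14), and without control mouse 1 there were 39 (median -0.01). At an unadjusted p under 0.05 stood 10 members without control mouse 3 (11.9%, against 10.6% of all genes in that fit) and 16 without mutant mouse 12 (19%, against 12% of all genes). In the first libraries 18 of 83 did (21.7%, against 8.72%), and in the second libraries 3 of 84 (3.57%, against 9.64%). Mutant mice also had the deeper libraries, with 20734169 counts on average, against 15160656 in control mice. The totals of the groups overlapped, with mutant mouse 12 at 15959104 counts and control mouse 2 at 16785063. After thinning every mouse to the smallest total the median was 0.05, with 52 of 84 members above 0. With the log2 total count as a covariate the median was -0.13, with 14 members above 0. The part of depth in these values was not tested further.

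**Figure D2:**
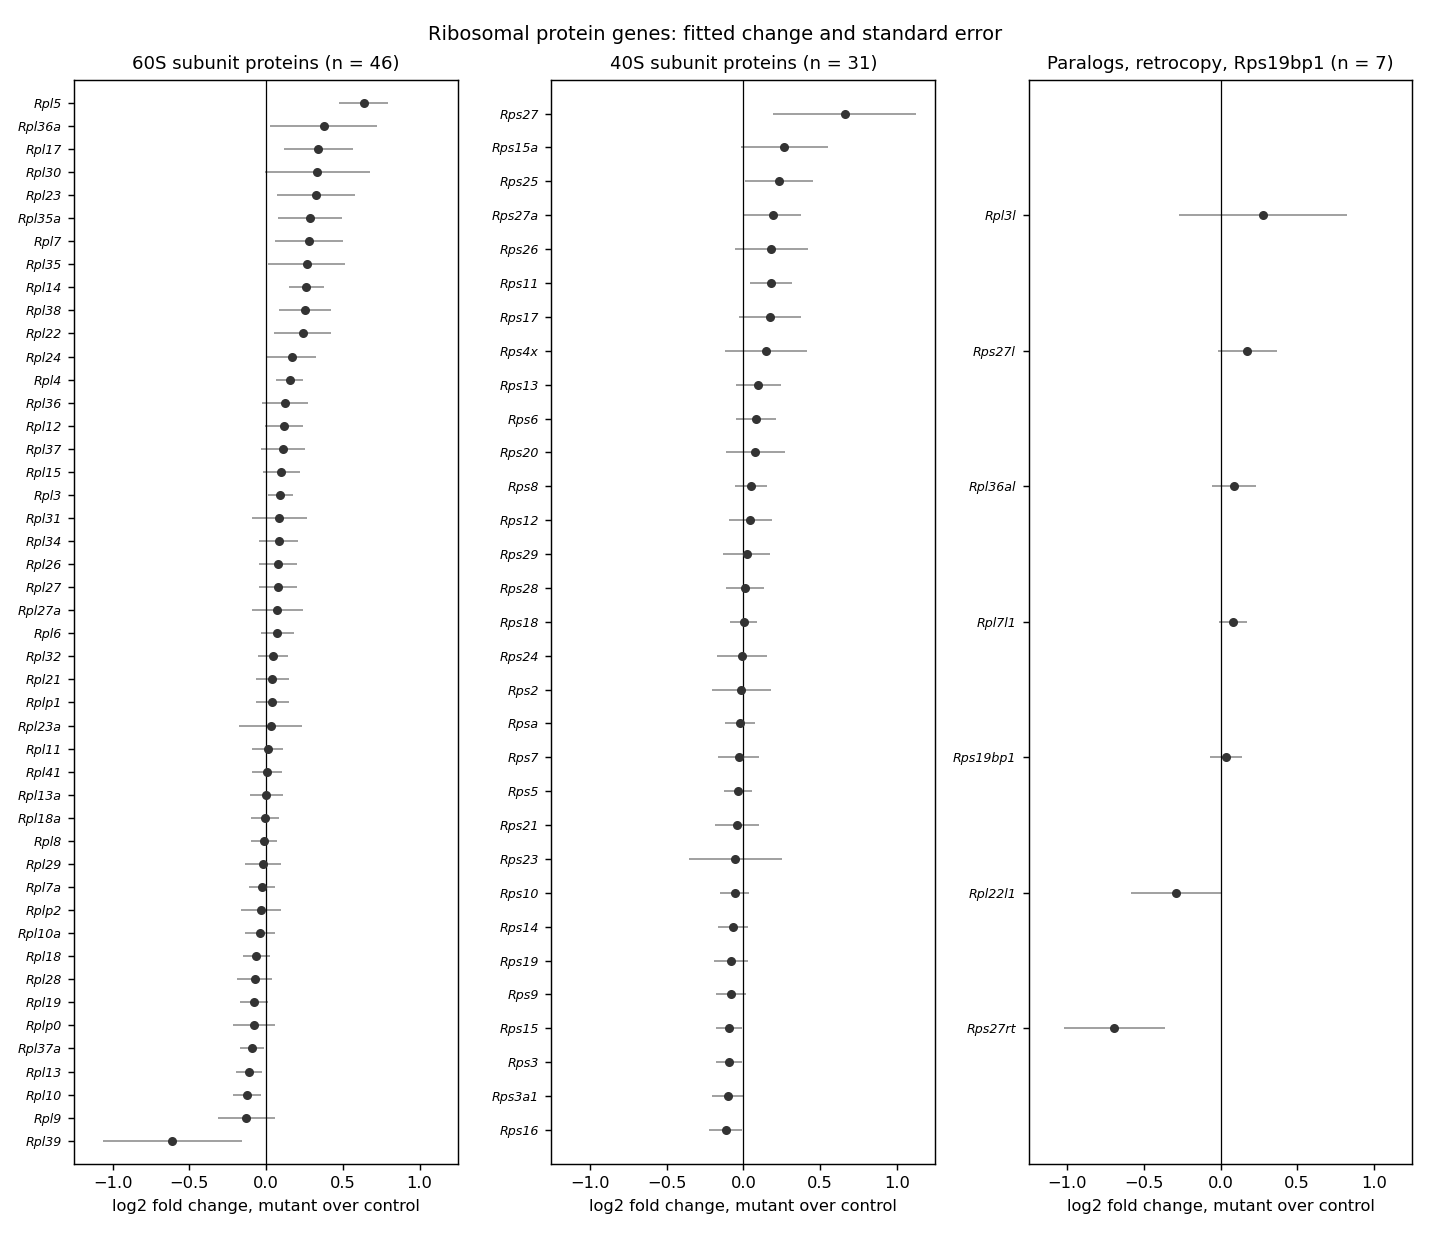
Fitted log2 fold change, mutant over control, of the 84 members tested, with the standard error as a bar, sorted within 60S genes, 40S genes and the other members. Of the 84, 66 lie within 0.2 of 0, and the genes away from 0 mostly carry wide bars; Rpl5 at 0.64 with an SE of 0.16 is the one farthest from 0 for its error.

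Of the 84 members tested, Rpl5 had the smallest unadjusted p with edgeR, without being called by it. It encodes the protein that, with RPL11 and 5S ribosomal RNA, forms the 5S particle of the large subunit, which also binds the p53 regulator MDM2. The gene (ENSMUSG00000058558) lies on GRCm38 chr5:107900502-107909005. Its normalised level was 1267, 1864, 1096, 1370 and 1420 CPM (gene counts scaled to a library size of 1e6, with TMM factors) in mutant mice 6, 7, 8, 10 and 12. In control mice 1 to 4 it was 745, 785, 1054 and 1028 CPM. All mutant mice lay above all control mice, with mutant mouse 8 (1096 CPM) close to control mouse 3 (1054 CPM). The means were 1403 ± 286 CPM in mutant mice and 903 ± 160 CPM in control mice (SD, n = 5 and 4), a log2 fold change of 0.64 (SE 0.16, 1.55-fold). With edgeR's quasi-likelihood test the unadjusted p was 0.00165 and the adjusted p 0.242, and with DESeq2 the adjusted p was 0.0206. Under the other alternatives the adjusted p ran from 0.118 to 0.982.

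The size of that difference depended on which libraries and which rows were counted. The log2 fold change of Rpl5 was 1.21 in first libraries and 0.18 in second libraries, where edgeR's unadjusted p was 0.326. In control mouse 4 the first library gave 636 CPM and the second 1511 CPM. A transcribed pseudogene, Gm15500 (chr7:114705217-114706235), is 100% identical to an Rpl5 transcript over 1018 bases, and copies of this kind held 62.4% of the counts of the Rpl5 family. In CPM of each mouse's total, Gm15500 was at 2415, 2767, 2225, 2011 and 480 in mutant mice 6, 7, 8, 10 and 12, against 1446, 1958, 2238 and 1786 in control mice 1 to 4. Mutant mouse 12 was by far the lowest, and the other mice overlapped. With the copies added to Rpl5 the family averaged 3445 ± 1020 CPM in mutant mice and 2773 ± 560 CPM in control mice, the groups overlapped, and the log2 fold change was 0.31 (SE 0.22, edgeR adjusted p = 0.641). Since the last bases of Gm15500 also lie inside Rpl5 transcripts, reads of both rows are not separable with certainty. The last 30 bases of the Gm15500 transcript are held by 3 of 6 annotated Rpl5 transcripts. In the protein-coding Rpl5-201 they lie 956 bases from its end. In the retained-intron transcripts Rpl5-204 and Rpl5-205 they lie 1 and 6 bases from the end.

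Rpl11, the partner of Rpl5 in the 5S particle, did not share that pattern. It stood at 4578, 4817, 5528, 5160 and 4326 CPM in mutant mice and at 4453, 4986, 5436 and 4530 CPM in control mice. The groups covered nearly the same range, and the log2 fold change was 0.01 (SE 0.10, edgeR adjusted p = 0.982).

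Rpl14, a 60S protein, was the other gene under an unadjusted p of 0.05. It was at 5247, 5536, 4639, 4611 and 4531 CPM in mutant mice 6, 7, 8, 10 and 12, and at 3605, 3884, 5037 and 3864 CPM in control mice 1 to 4. Control mouse 3 fell within the mutant range and the other 3 control mice below it. The log2 fold change was 0.26 (SE 0.11), with an edgeR unadjusted p of 0.0400 and an adjusted p of 0.473. Copies held 0.242% of its family's counts.

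A pair of genes that share sequence, Rps27 and Rps27rt, moved against each other across the mice. Rps27 encodes a zinc-finger protein of the 40S subunit (chr3:90212522-90213651), and Rps27rt (chr9:114982366-114982739) is its retrocopy. The annotated transcripts end alike but for the run of A (in capitals, the first 10 of 31 in the retrocopy), and the libraries read near this end:
Rps27-202: taaacacgttttggatatatAA
Rps27rt-201: taaacacgttttggatatatAAAAAAAAAA
Rps27 was at 671, 891, 744, 418 and 175 CPM in mutant mice 6, 7, 8, 10 and 12, and at 193, 487, 629 and 159 CPM in control mice 1 to 4. Rps27rt was at 313, 347, 303, 528 and 793 CPM in the same mutant mice, and at 1055, 550, 390 and 959 CPM in the control mice. A mouse low in Rps27 was high in Rps27rt in both groups. Rps27 had a log2 fold change of 0.66 (SE 0.47, edgeR adjusted p = 0.665) and Rps27rt one of -0.69 (SE 0.33, adjusted p = 0.518). Summed with its copies, Rps27rt included, the family was at 1037 ± 119 CPM in mutant mice and 1105 ± 103 CPM in control mice (SD, n = 5 and 4). The log2 fold change of that sum was -0.09 (SE 0.10, adjusted p = 0.790). The sum differed between groups by less than its standard error.

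**Figure D3:**
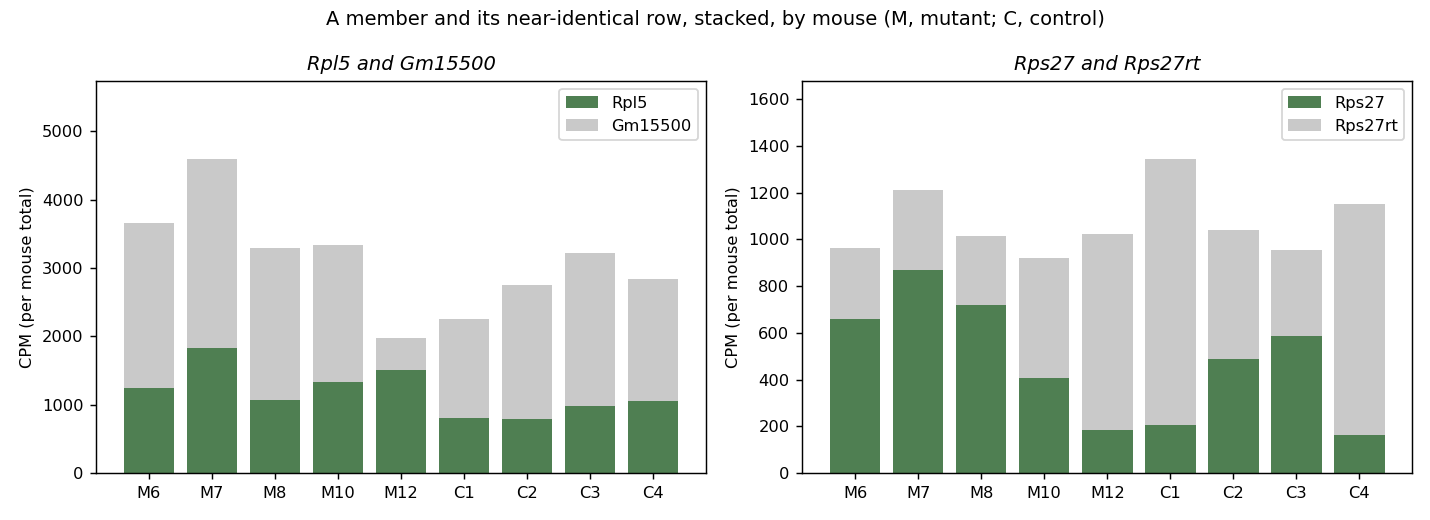
CPM, by each mouse's total, for Rpl5 with Gm15500 stacked on it (left) and Rps27 with Rps27rt stacked on it (right), mutant mice (M) left of control mice (C). The Rps27 stacks are close in height while the split inside them shifts between mice, and mutant mouse 12 has little Gm15500, at 480 CPM.

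Many members have near-identical copies. Estimated counts need not be whole, and among rows averaging at least 50 CPM 96.9% of the values of 81 members were not whole numbers, against 37.8% of those of 2720 other rows. Of all members, 29 had over 10% of their family's counts in rows at least 95% identical over at least 150 bases. In 9 members it was over 50%. Rpl10, a protein near the peptidyl transferase centre, was the extreme: its own row held 10756 counts over all mice and Rpl10-ps3 held 867163, so that 98.8% of the family lay in copies. Its own row stood at 58.3, 59.8, 70.1, 64.6 and 65.3 CPM in mutant mice and at 68.6, 77.7, 68.6 and 62.5 CPM in control mice. The groups overlapped, and the family sum of 5312 ± 263 CPM in mutant mice and 5554 ± 359 CPM in control mice gave a log2 fold change of -0.06 (SE 0.09, edgeR adjusted p = 0.826). The own rows of Rpl24, Rpl35, Rps13, Rpl9, Rpl12, Rps23 and Rps27 likewise held less than their copies. For Rpl24 nearly all of that lay in Gm28037 (214790 of 214960 counts), a processed transcript at chr16:55966343-55980721. It overlaps the Rpl24 gene itself (chr16:55966275-55971435) and is not a copy at another place. With copies added to all members, 49 of 83 families lay above 0 (median 0.02), 1 stood at an unadjusted p under 0.05 (1.2%, against 10.1% of all genes in that fit) and 0 had groups that did not overlap. Levels of single rows are therefore uncertain for these genes.

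Rps27rt counts as a member, so it was left out of the sum of copy rows given here. The share of the members overlapped between groups, while the summed share of the copy rows did not. They held 4.42%, 4.31%, 4.49%, 4.42% and 4.16% of counts in mutant mice 6, 7, 8, 10 and 12, and 4.60%, 4.55%, 4.57% and 4.52% in control mice 1 to 4. All mutant values lay below all control values, by 0.199 points between the means. The nearest values differ by little: 4.488% in mutant mouse 8 and 4.523% in control mouse 4. Adding up these rows was chosen after the data had been seen, so no test is given. Among single genes, the groups lay apart in 4% of all genes tested. Members and copies together held 33.8% ± 1.02 in mutant mice and 33.8% ± 2.24 in control mice (SD, n = 5 and 4).

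The stalk proteins Rplp0, Rplp1 and Rplp2, which recruit the GTPases of translation to the ribosome, are described next. Rplp1 averaged 12727 ± 499 CPM in mutant mice and 12373 ± 2044 CPM in control mice (log2 fold change 0.04, SE 0.11). Rplp0 averaged 9101 ± 1604 CPM in mutant mice and 9618 ± 1200 CPM in control mice (-0.08, SE 0.14), with mutant mouse 6 lowest at 6533 CPM. Rplp2 averaged 5250 ± 533 CPM in mutant mice and 5368 ± 1133 CPM in control mice (-0.03, SE 0.13). Each of the 3 differences was within its standard error, and the edgeR adjusted p-values lay between 0.875 and 0.952.

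Around the peptidyl transferase centre, Rpl3, Rpl4, Rpl8 and Rpl10 had log2 fold changes from -0.12 to 0.15. Rpl4, whose loop lines the exit tunnel, was the member with the smallest spread between libraries, with a technical SD of 0.04 on the log2 scale. It was at 3837, 4352, 3694, 3807 and 3524 CPM in mutant mice and 3291, 3302, 3657 and 3562 CPM in control mice. Only mutant mouse 12 lay within the control range, and the log2 fold change was 0.15 (SE 0.09, edgeR unadjusted p = 0.107, adjusted p = 0.585).

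At the rim of the exit tunnel, 6 of 8 genes lay above 0, and 0 of the 8 was called. The lowest was Rpl39. It stood at 19.1, 15.2, 22.6, 29.5 and 93.2 CPM in mutant mice 6, 7, 8, 10 and 12 and at 69.8, 67.1, 36.4 and 44.97 CPM in control mice 1 to 4. Of the mutant mice 4 lay below every control mouse, and mutant mouse 12 lay above all. The log2 fold change was -0.61 (SE 0.45, edgeR unadjusted p = 0.203, adjusted p = 0.683). Without mutant mouse 12 it was -1.34, with an adjusted p of 0.0934, against 0.340 to 0.987 under the other alternatives. The highest of the 8 was Rpl17, at 5574 ± 1378 CPM in mutant mice and 4403 ± 1371 CPM in control mice (0.34, SE 0.22, adjusted p = 0.637).

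Of the other 60S genes taken up by rule, Rpl38 was at 2743 ± 688 CPM in mutant mice and 2303 ± 362 CPM in control mice (log2 fold change 0.25, SE 0.17, edgeR adjusted p = 0.645). Rpl13 was at 7818 ± 572 CPM in mutant mice and 8452 ± 402 CPM in control mice (-0.11, SE 0.09, adjusted p = 0.687), and Rpl37a at 4574 ± 144 CPM in mutant mice and 4881 ± 274 CPM in control mice (-0.09, SE 0.08, adjusted p = 0.719). The groups of all 3 overlapped.

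In the 40S subunit no gene stood at an unadjusted p under 0.05. Rps3 lines the mRNA entry of the ribosome, and it averaged 3594 ± 255 CPM in mutant mice and 3836 ± 118 CPM in control mice (log2 fold change -0.09, SE 0.08, edgeR adjusted p = 0.736). Rpsa, which sits at the mRNA exit, averaged 11226 ± 1096 CPM in mutant mice and 11397 ± 920 CPM in control mice (-0.02, SE 0.10). Rps12, in the head of the subunit, averaged 10719 ± 1620 CPM in mutant mice and 10395 ± 1818 CPM in control mice (0.04, SE 0.14). Rps27a, made as a fusion with ubiquitin, averaged 1484 ± 325 CPM in mutant mice and 1300 ± 319 CPM in control mice (0.19, SE 0.19).

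Rps6 encodes the substrate of the S6 kinases downstream of mTOR. It was at 4802, 5026, 4900, 4802 and 3317 CPM in mutant mice 6, 7, 8, 10 and 12 and at 3656, 4406, 4995 and 4212 CPM in control mice 1 to 4. Mutant mouse 12 was the lowest of the 9 mice and the other 4 mutant mice were close together. The log2 fold change was 0.08 (SE 0.13, edgeR adjusted p = 0.866).

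Among genes mutated in Diamond-Blackfan anemia in humans, 14 of 19 lay above 0, with a median of 0.08. Of all genes 51.7% lay above 0 (median 0.01), and of all members tested 61.9% (median 0.04). Of these 1, Rpl5, stood at an unadjusted p under 0.05 and 0 were called.

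The genes outside the core were tested where counts allowed. Rpl10l, a testis paralog of Rpl10, had 0 counts in all mice, under a limit of 3 counts that corresponds to 0.118 to 0.255 CPM. Rpl39l, also known from testis, had 8 counts in all: 0, 0, 0, 4 and 1 in mutant mice and 2, 0, 0 and 1 in control mice. Rpl3l, a paralog of heart and skeletal muscle, averaged 1.11 ± 0.777 CPM in mutant mice and 0.942 ± 0.573 CPM in control mice. Rpl22l1, the paralog of Rpl22, was at 16.9, 15.3, 18.2, 17.1 and 45.3 CPM in mutant mice 6, 7, 8, 10 and 12 and at 32.1, 28.0, 29.01 and 20.8 CPM in control mice 1 to 4. As for Rpl39, 4 mutant mice lay below the control mice and mutant mouse 12 above them, with a log2 fold change of -0.29 (SE 0.29, edgeR adjusted p = 0.775). Rpl36al, Rps27l, Rpl7l1 and Rps19bp1 had log2 fold changes from 0.04 to 0.18 and adjusted p-values from 0.794 to 0.930.

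Technical libraries of 1 mouse differed in the levels of many core genes. The median technical SD of the 77 core genes was 0.22 on the log2 scale, against 0.17 for 2612 other protein-coding genes at 50 CPM or more. The median SD between mice of a group, each taken as the mean of its libraries, was 0.17 for core genes and 0.15 for those others. In 51 of 77 core genes the technical SD was the larger. The technical SD is on the scale of 1 library, and the SD between mice is on that of a mean of 2 libraries. Library noise also enters the SD between mice, so the count cannot tell which source of spread is larger. Core genes with over 10% of their family in copies (29) had a median technical SD of 0.28, and the 48 others 0.17.

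Several genes differed severalfold between libraries made from the same mouse. Rps27 was at 122 and 722 CPM in the libraries of control mouse 2. Rpl30, a 60S protein chosen here after its values were seen, was at 836 and 2429 CPM in that mouse. Rps15a, a 40S protein also chosen after its values were seen, was at 580 and 77.8 CPM in mutant mouse 7, the widest gap of any member, although copies held 1.16% of its family. Summed over libraries, Rpl30 stood at 2639, 2560, 2423, 2013 and 773 CPM in mutant mice 6, 7, 8, 10 and 12 and at 948, 1803, 2634 and 1220 CPM in control mice 1 to 4. The groups overlapped throughout, and the log2 fold change was 0.33 (SE 0.34, edgeR adjusted p = 0.781).

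**Figure D4:**
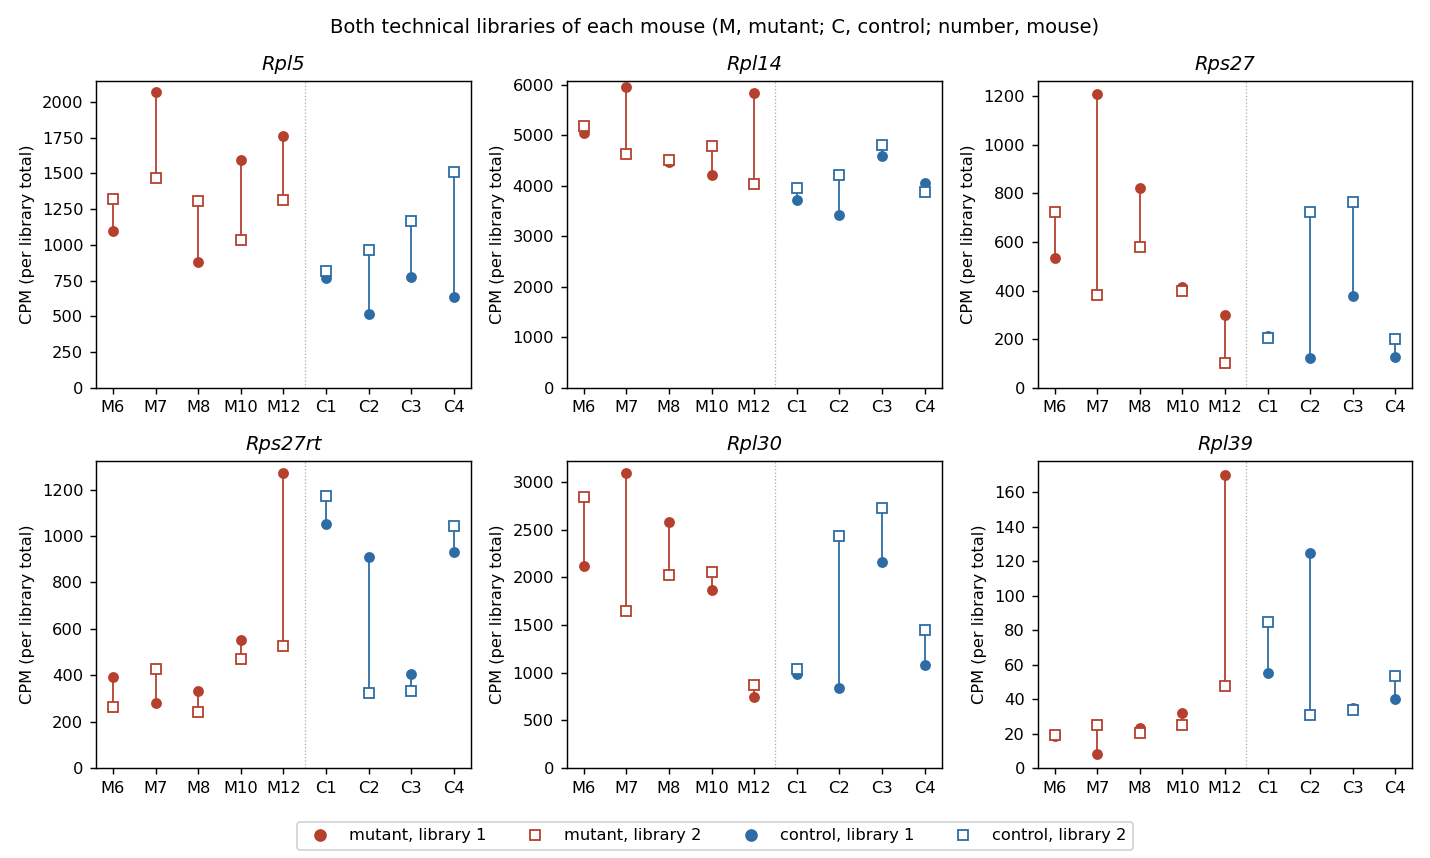
CPM, by each library's total, for 6 genes, with libraries 1 (filled) and 2 (open) of a mouse joined by a line, mutant mice (M) left of control mice (C). For Rpl5 the first libraries of control mice are low, from 513 to 776 CPM, and their second libraries reach 1511 CPM; for Rps27, Rps27rt, Rpl30 and Rpl39 the widest log2 gap between libraries is in control mouse 2, while other mice have narrow ones, such as control mouse 1 for Rpl30 at 984 and 1037 CPM.

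**Figure D5:**
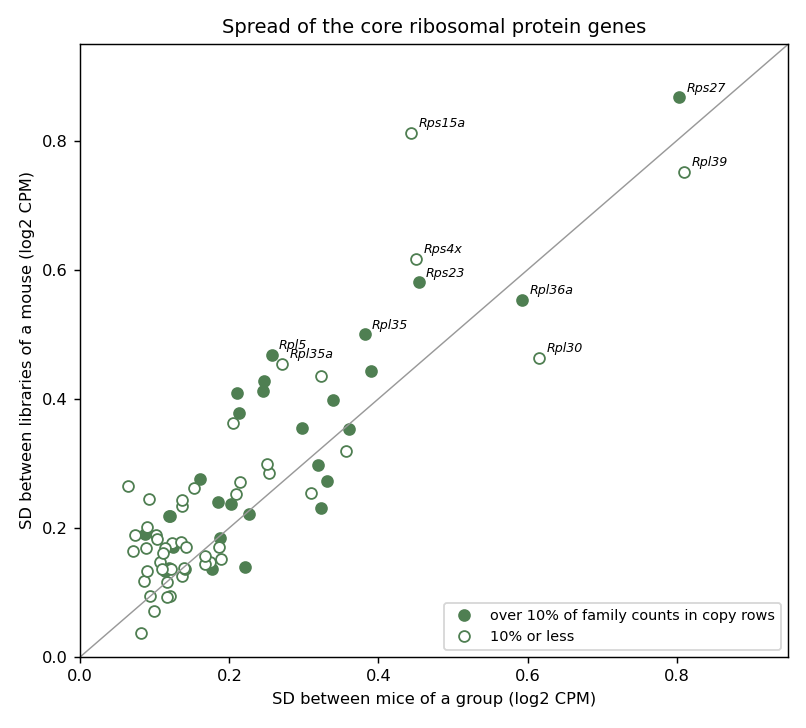
SD between libraries of a mouse against SD between mice of a group, both in log2 CPM, for the 77 core genes; filled points have over 10% of their family's counts in copy rows and the line marks equality. In 51 genes the point lies above the line, and Rps27, Rps15a and Rpl39 are at the top.

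The extremes fell mostly to 4 mice. Mutant mouse 12 had the lowest level of 29 of 77 core genes and control mouse 1 of 20. Control mouse 3 had the highest level of 35 and mutant mouse 7 of 18. In mutant mouse 12, 57 core genes were higher in the first library than in the second, and in mutant mouse 6 the figure was 11.

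Other parts of the translation apparatus gave no calls: by edgeR 0 genes were called in each list. For comparison with these lists, of all genes tested 0.0694% were called, 51.7% lay above 0 and 4% had groups that did not overlap. How the number above 0 in each list changes with the libraries used was not examined. Of the ribosomal proteins outside the naming rule, Fau was at 4104 ± 257 CPM in mutant mice and 4306 ± 99.5 CPM in control mice (log2 fold change -0.07, SE 0.08). Rack1, the scaffold protein of the 40S head, was at 4660 ± 254 CPM in mutant mice and 4825 ± 407 CPM in control mice (-0.05, SE 0.09). Among elongation factors 6 of 7 lay above 0. Eif5a, which helps ribosomes through stretches of proline, averaged 2012 ± 106 CPM in mutant mice and 1705 ± 95.04 CPM in control mice. Its groups did not overlap, with a log2 fold change of 0.24 (SE 0.08, edgeR unadjusted p = 0.0141, adjusted p = 0.379). Among initiation factors 17 of 27 lay above 0, and Eif3l had the smallest p (0.34, SE 0.12, adjusted p = 0.369).

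Of 21 other mRNAs known to carry the oligopyrimidine tract 13 lay above 0 (median 0.03). Vim had the smallest p of them, at 635 ± 103 CPM in mutant mice and 469 ± 61.9 CPM in control mice (0.44, SE 0.13, adjusted p = 0.316). Of 15 genes that control translation of such mRNAs 5 lay above 0, and the mTOR target Eif4ebp1, a repressor of cap-dependent initiation, was at 109 ± 7.06 CPM in mutant mice and 126 ± 12.6 CPM in control mice (-0.21, SE 0.09, adjusted p = 0.472). Among 13 genes of nascent-chain handling and ribosome binding 8 lay above 0, and the signal recognition particle gene Srp54a had the smallest p (-0.34, SE 0.17, adjusted p = 0.545). Among 10 chaperones and importers of ribosomal proteins 8 lay above 0, and the importin gene Ipo5 had groups that did not overlap (0.19, SE 0.08, adjusted p = 0.446).

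The sorted cells expressed all 16 of the hematopoietic and myeloid markers looked for, with summed levels of 9392 to 17599 CPM in mutant mice and 11100 to 12235 CPM in control mice. Markers of late neutrophils (10 of 10 with counts) summed to 221 to 499 CPM in mutant mice and 424 to 1002 CPM in control mice, and those of erythroid cells (12 of 12) to 19.0 to 60.3 CPM in mutant mice (median 44.7) and 7.07 to 53.5 CPM in control mice (median 9.74). Taken singly, the 10 late neutrophil markers went both ways, with 5 above 0 and 5 below (median 0.04). All 7 erythroid markers tested lay above 0 (median 0.88, 3 at an unadjusted p under 0.05, 0 called by edgeR). B and plasma cell markers (9 of 9) summed to 133 to 211 CPM in mutant mice and 177 to 229 CPM in control mice. T and NK markers (7 of 9, Cd3g and Cd4 at 0) summed to 108 to 190 CPM in mutant mice and 96.1 to 143 CPM in control mice. Stromal and endothelial markers (8 of 10, Col3a1 and Pdgfra at 0) summed to 37.2 to 51.3 CPM in mutant mice and 49.5 to 55.4 CPM in control mice. Megakaryocyte markers (5 of 5) summed to 20.9 to 35.1 CPM in mutant mice and 32.6 to 38.5 CPM in control mice, with 1 marker called lower (Itga2b, log2 fold change -1.90, SE 0.30, edgeR adjusted p = 0.0427). That call depended on the processing: in first libraries, after thinning and with the depth covariate no gene of any kind was called. Mast cell and basophil markers (6 of 6) summed to 28.4 to 38.0 CPM in mutant mice and 40.2 to 53.8 CPM in control mice. Of the megakaryocyte markers tested 1 of 3 lay above 0, and of the mast cell and basophil markers 1 of 3. For stromal and endothelial markers it was 1 of 3, for B and plasma cell markers 0 of 4, and for T and NK markers 1 of 1. Of the hematopoietic and myeloid markers 6 of 16 did. The part of these marker differences in the levels above was not tested. In bulk RNA, fewer cells of a type and less RNA per cell cannot be told apart.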

How the data were processed

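Per the labels' protocols, RNA 3′ ends were read on a NextSeq 500 by MARS-seq adapted to bulk RNA. The authors deposited estimated counts per gene for 18 libraries. Salmon 1.3, bcl2fastq, FastQC and GRCm38 are named, without roles, in the submitters' processing notes. For the annotation release, molecular identifiers and strand setting, nothing is given in the sources used here. The first 18 characters of each ID were matched to GENCODE mouse release M21, which gave symbols for 54094 of 54347 IDs. The pair of technical libraries from each mouse was added up and rounded. Genes were filtered by filterByExpr (minimum count 10), scaled by TMM and tested by the 2-sided quasi-likelihood test of edgeR 4.0.16 under R 4.3.3. The fit set 5 mutant over 4 control mice with no covariate and tested 12973 genes, with Benjamini-Hochberg adjustment over all of them and a call at an adjusted p under 0.05. Standard errors were taken as the log2 fold change over the root of the F statistic. The step was also run on counts simulated from the levels and spread of this fit, with larger fold changes than most members had. That run cannot show how often changes as small as those of most members would be called. Intervals of depth, such as the 3-count limit, cover counting error only. Each mouse is a separate animal, and library SDs are technical.

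Spread per gene used log2(CPM + 1) of the library total; the technical SD is the root mean square of the library difference over mice, scaled to 1 library. Near-identical copy rows were found with BLAST 2.17.0 (at least 95% identity over at least 150 bases, same strand, pseudogene, predicted and -ps rows, and Rps27rt); adding them to their gene was chosen after the data had been seen. The members and lists were chosen with earlier results of these data known, and some listed genes are not reported here. Genes were named by rule: called members, the 6 of lowest p in each direction, the 5 with the highest mean, the stalk, 5S and non-core classes, Rps6, Rpsa and Rps27a, and 2 per other list. Rpl30, Rps15a, Rps23 and Rpl36a were chosen after their values were seen, as was any other member named as an example. Counts of 3′ ends are not scaled by length here, so levels were compared between mice and not between genes. Alternatives were DESeq2 1.42.0, limma 3.58.1 with voom, other factors, filters and depths, single technical libraries, added copies, and leaving out each mouse.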

Additional observations from a re-analysis of the deposited data

Results flagged for a closer look

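Of 70 groups of mice examined, 5 held a mouse far from the others of its group by Dixon's ratio at the 95% level. For groups picked without regard to their values, chance flags about 1 in 20. The groups here include Rpl30, Rps23, Rpl36a and Rps15a, chosen after their values were seen, and members named for a low p. That rate therefore does not apply to them as a set, and no comparison with chance is drawn. Rpl39 in mutant mouse 12 was at 93.2 CPM, with the other mutant mice at 15.2 to 29.5 CPM. Rpl22l1 in the same mouse was at 45.3 CPM, with the others at 15.3 to 18.2 CPM. Rps6 in mutant mouse 12 was at 3317 CPM, with the others at 4802 to 5026 CPM. Among controls, Rps23 in mouse 3 was at 4465 CPM, with the others at 1441 to 1946 CPM, and Rpl38 was at 2842 CPM, with the others at 2070 to 2173 CPM. The 5 values come from 2 mice.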

How the results depend on the processing

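No ribosomal protein gene was called under any alternative except DESeq2, which called 1 (Rpl5, 0.63, adjusted p = 0.0206), and the count stayed at 0 without each mouse in turn. The count over all genes was 9. It was 88 with DESeq2, 21 with no low-count filter, 62 with the 18 libraries and mouse as a random effect, 60 with a technical replicate block added, and 3 in second technical libraries. It was 0 at a mean of at least 10 CPM, in first technical libraries, without the first library of mutant mouse 7, with the log2 total count as a covariate and after thinning to the smallest total, where edgeR's unadjusted p was under 0.05 for 801, 996, 1214, 572 and 1188 genes. Without each mouse in turn it ranged from 0 to 7. Mouse numbers are not shared between groups, so no pairing of mutant with control mice was used, and the technical replicate block changed no call of a member.

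The median over members of 0.04 was -0.13 with the depth covariate and ranged from -0.01 to 0.14 without each mouse. The difference in share of 0.25 points was 2.13 in first libraries and -1.41 in second libraries, and ranged from -0.254 to 1.33 without each mouse.

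Of 44 named genes 19 kept their sign under every alternative run. Log2 fold changes of opposite sign were, with the depth covariate, Rpl17 -0.15, Rpl38 -0.065, Rps27 -0.48, Rpl39 0.18, Rplp1 -0.077, Rps12 -0.20, Rpl11 -0.13, Rpl3l -0.89, Rpl22l1 0.26, Rpl36al -0.17, Rps27l -0.14, Rps19bp1 -0.042, Rps6 -0.19, Rps27a -0.15, Eef1a1 -0.0027, Rpl30 -0.42, Rpl36a -0.31 and Rps15a -0.15. In second libraries they were Rpl17 -0.064, Rpl38 -0.011, Rps27 -0.15, Rplp1 -0.037, Rpsa 0.017, Rps12 -0.029, Rplp0 0.057, Rplp2 0.0036, Rpl11 -0.057, Rpl3l -0.60, Rpl36al -0.045, Rps27l -0.038, Rps6 -0.029, Rps27a -0.25, Rpl30 -0.048 and Rps15a -0.26, and in first libraries Rpl37a 0.086, Rps3 0.017 and Rps23 0.79. Without the first library of mutant mouse 7 they were Rpsa 0.038, Rplp0 0.0052, Rpl3l -0.063 and Rps15a -0.052. Rps23 was 0.080 with limma-voom, 0.14 and 0.15 in the fits of 18 libraries without and with the technical replicate block, 0.10 with named pseudogenes added and 0.089 with near-identical copies added, where Rps27 was -0.092. Rpl11 was -0.0062 with upper-quartile factors, -0.018 without factors and -0.0011 at a mean of at least 10 CPM. Without each mouse in turn, Rpl11 ranged from -0.039 to 0.070, Rpl3l from -0.21 to 0.68, Rplp0 from -0.13 to 0.020, Rplp1 from -0.027 to 0.16, Rplp2 from -0.10 to 0.13, Rps12 from -0.033 to 0.17, Rps19bp1 from -0.024 to 0.083, Rps23 from -0.22 to 0.47, Rpsa from -0.063 to 0.036 and Rack1 from -0.077 to 0.012. None of these genes was called under any of these settings, and the cause of these changes was not tested.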
